A study of Mus musculus with 24 samples.

Results

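The 68 genes described here are the replication-dependent and linker histone genes of the mouse. They were chosen by symbol, as every gene whose symbol begins with Hist1h, Hist2h, Hist3h or Hist4h in both RNA count tables, each of which holds 24421 genes. They comprise 6 genes of the linker histone H1, 18 of H2A, 19 of H2B, 12 of H3 and 13 of H4, and 1 of the H2B entries is the pseudogene Hist3h2bb-ps. The rule reads names and no measured value.

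The samples came from B16-OVA, melanoma cells of the mouse with ovalbumin as a model antigen, and from CD8 T cells that had met them. Tumour cells carried a hairpin against Fto (shFto), the gene of an RNA demethylase that removes N6-methyladenosine (m6A), or a control hairpin (shNC). Both were grown in puromycin, and neither the hairpin line used for the tumour libraries nor its clonality is given in the labels. RNA-seq, and ATAC-seq, in which a transposase marks open chromatin, each covered 3 shFto and 3 shNC tumour libraries. OT-I CD8 T cells, isolated as naive cells with a receptor for an ovalbumin peptide, were kept for 8 h in IL-2 beside tumour cells and then sorted, and 2 RNA-seq libraries were made for each of 3 tumour lines, shNC, shFto-1 and shFto-2. The m6A peak lists, 1 per condition, came from shNC and shFto cells in DMSO and from shNC cells with 5 µM Dac51, a compound known here by its code, all for 48 h. Whether replicates are separate cultures is not in the labels, and the p-values therefore cover the variation among these libraries alone, technical variation possibly included.

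Histones H2A, H2B, H3 and H4 form the core around which DNA is wrapped, and H1 binds the linker DNA between cores. The replication-dependent genes are transcribed in S phase, when new chromatin must be assembled, and most of their messages end in a conserved stem-loop instead of a poly(A) tail. That end is made by its own machinery, with the stem-loop binding protein SLBP and the transcription coactivator NPAT. Most of the genes lack introns and sit in clusters, the largest of them on mouse chromosome 13. Some members, such as Hist1h2bc, Hist2h2be and Hist1h1c, are also known to give polyadenylated messages in cells that do not divide.

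Promoter sequences from RefSeq (GRCm38.p6) were found for 62 of the 68 members and gave 63 windows, from 250 bases before to 50 bases after the start. The TATA element TATAAA, read on either strand, was in 55.6% of member windows and in 13.6% of all 32841 promoter windows. The CCAAT box was in 85.7% of member windows against 37.4% of all. It was in every window of H1, H2A, H2B and H3 genes but in 3 of 12 H4 windows. The octamer ATTTGCAT, the textbook element of H2B promoters and the site of the POU factor Oct-1, was in 22.2% against 1.74%, and its 14 windows belonged to 7 H2A and 7 H2B genes. The H1 box AAACACA was in 14.3% of member windows and in 7.19% of all promoters. Its 9 member windows were 5 of 6 H1, 2 of 18 H2A and 2 of 17 H2B windows. None of the 4 motifs contains another. Adjacent H2A and H2B genes that face away from each other share parts of their windows, so these windows are not independent.

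The 250 bases before the start are shown for 5 members on which the results turn, 5′ to 3′ along the gene's strand, with every match to the 4 motifs on either strand in capitals. Hist1h1c (chr13:23738557-23738806, plus strand) was the most abundant linker histone in both cell types. Hist1h1b (chr13:21780626-21780875, minus strand) is a linker histone gene with no count in tumour cells. Hist1h2af (chr13:23533625-23533874, plus strand) had the highest level per length in tumour cells, Hist3h2a (chr11:58954435-58954684, plus strand) carried an m6A peak, and Hist1h4d (chr13:23581318-23581567, plus strand) was the most abundant H4 gene.
Hist1h1c: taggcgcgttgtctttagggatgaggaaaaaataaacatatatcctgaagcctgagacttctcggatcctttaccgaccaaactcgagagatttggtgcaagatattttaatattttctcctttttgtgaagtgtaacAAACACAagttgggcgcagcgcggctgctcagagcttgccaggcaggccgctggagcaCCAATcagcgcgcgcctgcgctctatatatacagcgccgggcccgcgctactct
Hist1h1b: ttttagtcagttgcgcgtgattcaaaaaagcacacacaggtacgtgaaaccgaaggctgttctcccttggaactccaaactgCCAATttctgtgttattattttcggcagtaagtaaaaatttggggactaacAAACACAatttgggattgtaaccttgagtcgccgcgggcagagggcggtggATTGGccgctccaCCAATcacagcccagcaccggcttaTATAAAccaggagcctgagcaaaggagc
Hist1h2af: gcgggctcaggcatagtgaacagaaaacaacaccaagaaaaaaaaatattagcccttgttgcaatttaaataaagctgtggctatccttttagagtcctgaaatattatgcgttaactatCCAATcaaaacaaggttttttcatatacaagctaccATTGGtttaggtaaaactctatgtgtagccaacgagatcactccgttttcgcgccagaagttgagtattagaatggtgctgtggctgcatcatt
Hist3h2a: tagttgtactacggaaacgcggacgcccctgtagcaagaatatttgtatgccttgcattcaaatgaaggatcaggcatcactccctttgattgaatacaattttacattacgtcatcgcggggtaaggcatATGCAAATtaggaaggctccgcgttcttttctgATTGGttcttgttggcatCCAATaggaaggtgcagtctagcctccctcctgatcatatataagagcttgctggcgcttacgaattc
Hist1h4d: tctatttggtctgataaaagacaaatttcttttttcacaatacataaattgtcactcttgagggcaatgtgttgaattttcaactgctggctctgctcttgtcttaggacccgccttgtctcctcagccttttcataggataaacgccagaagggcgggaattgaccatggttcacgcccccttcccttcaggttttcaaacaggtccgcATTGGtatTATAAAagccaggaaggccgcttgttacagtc
Both H1 promoters hold AAACACA upstream of a CCAAT box, and that of the gene with no tumour count also holds TATAAA. The octamer in Hist3h2a stands in the reverse orientation, ATGCAAAT, upstream of its CCAAT boxes. The Hist1h2af window holds a pair of CCAAT boxes and none of the other 3 motifs, and Hist1h4d holds a CCAAT box next to TATAAA. Only exact letters were sought, so near matches such as tatata in Hist1h1c and tatataag in Hist3h2a were not capitalised. A match is a description of letters and not evidence of a bound factor, and the lack of one is not evidence that an element is missing.

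Total counts ran from 11152404 to 19665589 in the tumour libraries and from 2628158 to 13066355 in the T cell libraries. Levels are in CPM, the share of a library's counts scaled to a common total, with TMM factors set within each table. Fto itself was at 31.7, 33.5 and 28.3 CPM in the shFto tumour libraries against 107, 108 and 91.8 CPM in the shNC libraries, a log2 fold change of -1.72 (SE 0.098, edgeR adjusted p = 1.6e-10). The 11 melanocyte markers summed to 23418 to 24299.7 CPM in shFto and 18399.8 to 19407 CPM in shNC tumour libraries, and 8 of 11 were called higher in shFto. The 12 T cell markers summed to 4.47 to 8.14 CPM there, with Cd3e, Cd3d, Cd3g, Cd8a, Ptprc and Cd5 at 0, and to 3879 to 4951 CPM in the T cell libraries. Melanocyte markers summed to 1343 to 1988 CPM in the T cell libraries, so the sorted T cells held RNA of tumour cell genes.

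Histone RNA was lower in shFto tumour cells across all 5 classes. Of the 34 members that passed the expression filter, 27 were called lower in shFto and 0 higher by edgeR's quasi-likelihood test. Of the 11718 genes tested, 16.9% were called lower and 15.9% higher. At an unadjusted p under 0.05 in either direction were 27 of the 34 members and 5066 of the 11718 genes. The groups did not overlap for 25 of the 34, all with shFto below shNC, against 22.7% of all genes tested. The median log2 fold change of the 34 was -1.09 and that of all genes tested was -0.0028. All 68 members together summed to 200.3, 172 and 218 CPM in the shFto libraries and to 408, 374 and 361 CPM in the shNC libraries, so the highest shFto library lay well under the lowest shNC library. Of the 34 that passed, 31 reached the filter's minimum in both groups, 2 in shNC alone and Hist1h1t only when libraries of both groups are counted, so for those 2 passing and being low in shFto are not independent. DESeq2 called 25 of the 34 lower and 0 higher, and among all genes 1919 lower and 1821 higher. In bulk RNA, fewer cells of a kind, such as cells in S phase, and less RNA per cell cannot be told apart.

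**Figure D1:**
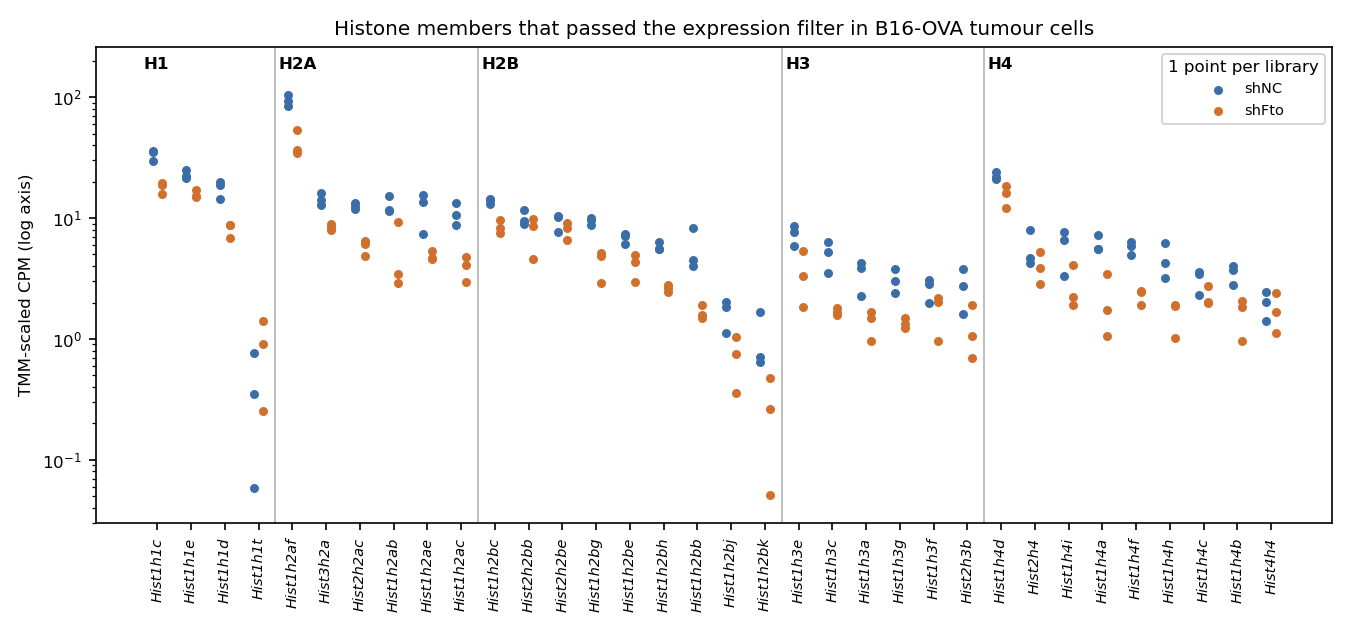
TMM-scaled CPM (log axis) of the 34 histone genes that passed the filter in tumour cells, by class, with 1 point per library, shNC in blue and shFto in orange. For 25 genes all 3 shFto points lie below all 3 shNC points; Hist1h2af is the highest gene in every library, and Hist1h1t, at the left, is the only gene whose fitted change was upward.

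Among the linker histones, which compact chromatin between nucleosomes, 3 of the 4 tested fell. Hist1h1c was at 18.7, 15.7 and 19.3 CPM in the shFto libraries and 35.5, 35.8 and 29.7 CPM in the shNC libraries, a log2 fold change of -0.90 (SE 0.12, edgeR adjusted p = 1.9e-05). The highest shFto library stayed under the lowest shNC library. Hist1h1d was at 8.68, 6.89 and 8.76 CPM against 18.6, 20.04 and 14.4 CPM (-1.11 (SE 0.16, edgeR adjusted p = 4.07e-05)), with no overlap. Hist1h1e fell least, from 22.4, 24.7 and 21.6 CPM in shNC to 17.1, 15.1 and 14.99 CPM in shFto, a log2 fold change of -0.54 (SE 0.12, edgeR adjusted p = 0.00255), and its groups did not overlap either. The testis gene Hist1h1t had a mean of 0.851 ± 0.573 CPM over the 3 shFto libraries (SD, n = 3), and 0.39 ± 0.352 CPM over the 3 shNC libraries (SD, n = 3), with overlapping libraries and an edgeR adjusted p of 0.253. Hist1h1a did not pass the filter, with 3 counts in its highest library, and Hist1h1b had 0.

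All 6 tested H2A genes fell. Hist1h2af (chr13:23533875-23534378) was at 36.8, 34.6 and 53.6 CPM in shFto and 104, 84.1 and 92.4 CPM in shNC, a log2 fold change of -1.15 (SE 0.13, edgeR adjusted p = 2.07e-06). Its shFto libraries all lay under its shNC libraries, and by level it made up the greater part of the H2A total. The 18 H2A genes summed to 65.8, 59.6 and 87.6 CPM in shFto and 177, 151 and 149 CPM in shNC. Hist3h2a, a gene away from the large cluster on chromosome 11, was at 8.89, 8.46 and 8.003 CPM against 14.05, 16.1 and 12.9 CPM (-0.77 (SE 0.15, edgeR adjusted p = 8.26e-04)). This was the smallest fall of the class, and the groups still did not overlap. Hist2h2ac, from the chromosome 3 cluster, was at 6.49, 4.88 and 6.08 CPM against 13.4, 11.9 and 12.6 CPM (-1.10 (SE 0.17, edgeR adjusted p = 7.56e-05)). The other 3, Hist1h2ab, Hist1h2ac and Hist1h2ae, fell by log2 fold changes of -1.24, -1.44 and -1.31. Hist1h2ab lost its call under DESeq2, with an adjusted p of 0.0511.

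Of 9 tested H2B genes, 7 fell, and those with the least change were genes outside the chromosome 13 clusters. Hist1h2bc was at 8.303, 7.59 and 9.67 CPM in shFto and 14.3, 13.1 and 14.2 CPM in shNC, a log2 fold change of -0.69 (SE 0.15, edgeR adjusted p = 0.00203) with no overlap. Hist2h2bb was at 9.79, 8.54 and 4.56 CPM against 11.7, 8.95 and 9.48 CPM and was not called (-0.40 (SE 0.22, edgeR adjusted p = 0.175)). Hist2h2be, known for a polyadenylated message, was not called at 8.303, 6.54 and 9.02 CPM against 10.3, 7.67 and 10.3 CPM (-0.22 (SE 0.18, edgeR adjusted p = 0.372)). In both uncalled genes the groups overlapped. Hist1h2bb had a steeper change, at 1.92, 1.48 and 1.57 CPM against 8.202, 4.47 and 4.004 CPM (-1.72 (SE 0.31, edgeR adjusted p = 3.44e-04)), and every shNC library was above every shFto library. The other 5 that fell were Hist1h2be (-0.72), Hist1h2bg (-1.11), Hist1h2bh (-1.16), Hist1h2bj (-1.29) and Hist1h2bk (-1.88), the last at a mean of 1.004 CPM or less. Calls were lost under 5 of 11 alternatives for Hist1h2bj, DESeq2 among them, under 4 of 11 for Hist1h2bk and under 2 of 12 for Hist1h2be.

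Among the H3 genes, 5 of 6 tested fell. Hist1h3e was at 3.3, 1.83 and 5.32 CPM in shFto and 5.92, 7.73 and 8.64 CPM in shNC (-1.04 (SE 0.27, edgeR adjusted p = 0.00667)). Its highest shFto library came within 1 CPM of its lowest shNC library without reaching it. Hist1h3c was at 1.81, 1.57 and 1.67 CPM against 6.38, 5.23 and 3.51 CPM (-1.57 (SE 0.29, edgeR adjusted p = 4.74e-04)), the steepest fall of the class. Hist1h3a was at 0.958, 1.48 and 1.67 CPM against 2.28, 3.83 and 4.21 CPM (-1.34 (SE 0.35, edgeR adjusted p = 0.00595)). Both kept their groups apart. Hist1h3g and Hist2h3b fell by log2 fold changes of -1.21 and -1.07, and they lost their calls under 2 and 6 of 11 alternatives. Hist1h3f was not called (-0.65 (SE 0.36, edgeR adjusted p = 0.173)). All 12 H3 genes summed to 10.4, 9.504 and 13.5 CPM in shFto and 23.4, 26.3 and 23.5 CPM in shNC.

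Of 9 tested H4 genes, 6 fell. Hist1h4d was at 16.1, 12.1 and 18.4 CPM in shFto and 21.8, 20.9 and 23.95 CPM in shNC, a log2 fold change of -0.50 (SE 0.14, edgeR adjusted p = 0.0113). The groups did not overlap, though the call was lost without shFto replicate 2 and without shNC replicate 3. Hist1h4i was at 2.24, 1.92 and 4.103 CPM against 6.61, 3.31 and 7.73 CPM (-1.04 (SE 0.32, edgeR adjusted p = 0.0161)), and shFto replicate 3 was above shNC replicate 2. It lost its call under 3 of 11 alternatives. Hist2h4 was at 3.89, 5.23 and 2.84 CPM against 4.71, 8.02 and 4.28 CPM and was not called (-0.55 (SE 0.27, edgeR adjusted p = 0.128)). Hist1h4a, Hist1h4b, Hist1h4f and Hist1h4h fell by log2 fold changes of -1.54, -1.06, -1.30 and -1.55, and Hist1h4b lost its call under 3 of 11 alternatives. Hist1h4c (-0.46) and Hist4h4 (-0.18), the single member on chromosome 6, were not called. H4 genes encode the same or nearly the same protein, and their similar sequences make single H4 values uncertain.

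Read per length, the order in shNC tumour cells was led by Hist1h2af at 186 CPM per kb, then Hist1h4d at 55.2, Hist1h1c at 46.4, Hist1h1e at 29.3 and Hist3h2a at 28.2 CPM per kb. In shFto cells the first of these was at 82.7 and the second at 38.6 CPM per kb. Lengths are those of the RefSeq gene, which is at most 1 kb for 62 members. For the other 6, Hist1h2bc, Hist1h2be, Hist1h2bp, Hist1h2bq, Hist1h2br and Hist2h2be, the annotated gene is longer, so their levels per length are not comparable with the rest.

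Lists of related genes, fixed beside the members, were counted in the same fit. Of 9 tested replacement variants, most of them known for polyadenylated messages made outside S phase as well, 7 were called lower and 0 higher, with a median log2 fold change of -0.45. H2afx, the variant phosphorylated at DNA breaks, also known to give a stem-loop message in S phase, was at 47.3, 42.9 and 55.4 CPM in shFto against 105, 109 and 99.4 CPM in shNC (-1.10 (SE 0.095, edgeR adjusted p = 6.83e-08)). The linker variant H1f0 had a log2 fold change of -0.67 and the H2A variant H2afj of -0.62. Of 24 tested genes for histone message processing and transcription, 10 were called lower and 4 higher, with a median of -0.061. They include the kinase gene Cdk2 (0.74), its cyclin gene Ccne1 (-0.38) and the transcription factor gene Yy1 (-0.46). Of 25 histone chaperone genes 2 were called lower and 6 higher, among them the assembly factors Chaf1b (0.37) and Asf1a (0.53) and the importin Ipo4 (-0.35).

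Cell cycle lists are given beside the fall because the members are S phase genes. Of 40 S phase genes, 5 were called lower and 8 higher, with a median log2 fold change of 0.021. The replication licensing gene Cdt1 (-0.53) and the polymerase subunit gene Pola2 (-0.44) fell, against the direction of most genes called in this list. Genes of each list are named here by smallest adjusted p, whatever their direction. These 40 genes summed to 7311 to 7522 CPM in shFto and 7223 to 7561 CPM in shNC libraries, and the groups overlapped. Of 24 genes of G2 and mitosis, 7 were called lower, including Ube2c (-0.58), Kif20a (-0.54) and Cdc20 (-0.51), and 5 higher. Of 12 CDK inhibitors and G1 regulators, 0 were called lower and 4 higher, among them Rbl2 (0.35) and Ccnd1 (0.33). The share of cells in each phase was not measured.

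A list of 10 other RNAs that carry no poly(A) tail was added after its values were seen. Of its 6 tested genes, 2 were called lower in shFto and 0 higher. Rpph1, the RNA of ribonuclease P, was at 33.2, 42.6 and 39.8 CPM in shFto against 149.6, 136 and 69.4 CPM in shNC (-1.63 (SE 0.18, edgeR adjusted p = 2.3e-06)). Rmrp, the RNA of a related ribonuclease, was at 16.98, 17.9 and 16.01 CPM against 25.2, 37.4 and 26.97 CPM (-0.83 (SE 0.14, edgeR adjusted p = 1.89e-04)). Each shFto library lay below each shNC library for both. The list summed to 58.2 to 69.1 CPM in shFto and 106 to 189 CPM in shNC, and its part in the fall of histone RNA was not tested. The 7 fibroblast and endothelial markers, with Cdh5 at 0, summed to 6.18 to 8.46 CPM in shFto and 13.01 to 15.7 CPM in shNC, and 3 of 4 tested were called lower; their part was not tested either.

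Of the members that did not pass the filter in tumour cells, 18 lay in 1 block, and the rest lay in other groups of neighbouring members. In all, 34 of 68 did not pass, and 21 had 0 counts in all 6 libraries. All 18 members of 1 block of 122 kb on chromosome 13, from Hist1h2bl to Hist1h2br (chr13:21715711-21837530), were among them. These 18 genes of all 5 classes had 8 counts together in the 6 tumour libraries, and 14 of them had 0. A count of 3, the limit that a count of 0 allows, corresponds to 0.152 to 0.262 CPM per gene and library, for counting error only. In T cells the same 18 genes had 2534 counts and 10 passed the filter, led by Hist1h2ak at 9.29 and 16.5 CPM in the shNC libraries. But 5 of the 14, Hist1h2bq, Hist1h2br, Hist1h2ao, Hist1h2ap and Hist1h4m, had 0 counts in every T cell library too. Their 0 is thus not particular to tumour cells. The linker gene Hist1h1b, inside the block, was at 9.29 and 5.87 CPM there. On 1 side the next genes of the count table are 8 olfactory receptor genes, which had 0 tumour counts, and beyond them the zinc finger gene Zkscan8 had 1392. On the other side the next gene, Zfp184, had 434. DNA copy number was not measured.

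**Figure D2:**
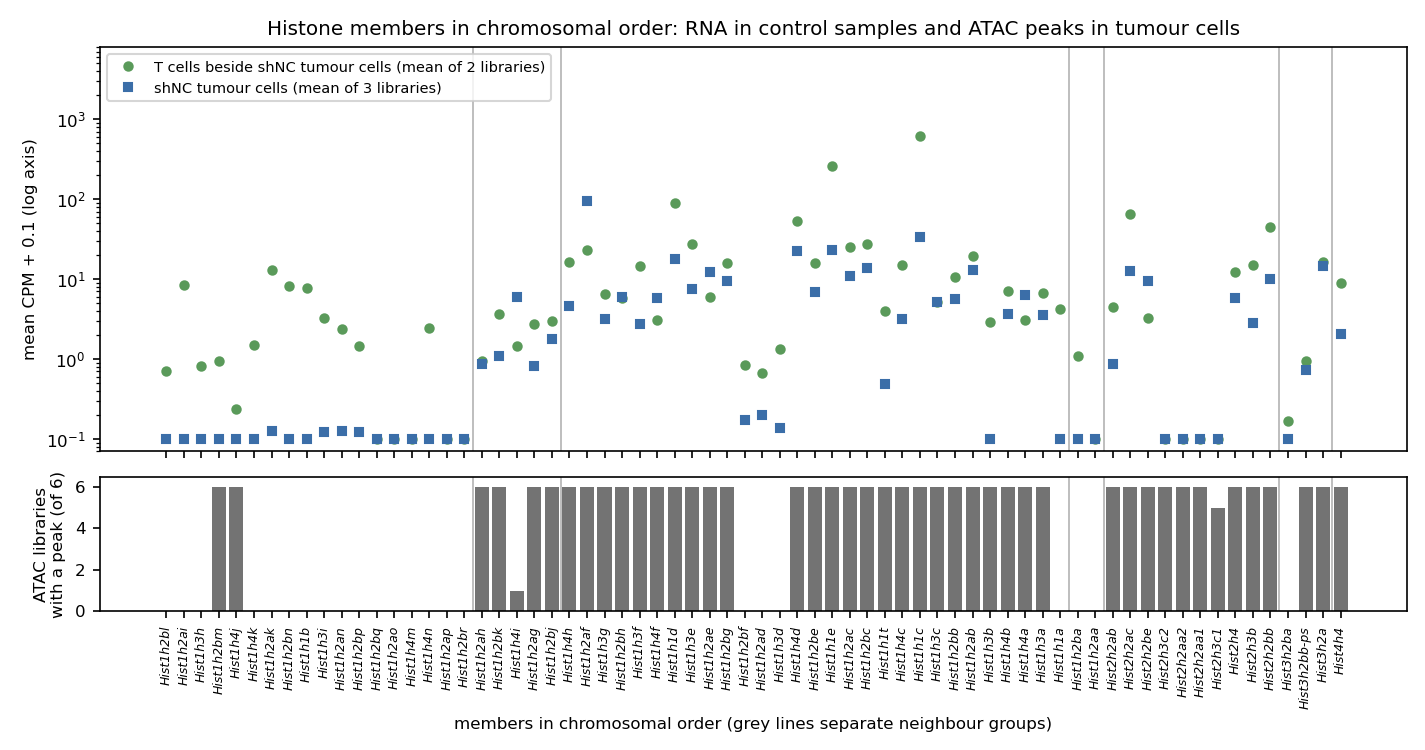
All 68 members in chromosomal order, with the mean CPM plus 0.1 (log axis) in shNC tumour cells (blue squares) and in T cells beside shNC cells (green circles) above, and the number of tumour ATAC libraries with a peak within 1 kb below. The first block at the left has 18 members at or near 0 in tumour cells, 2 of which have peaks, while 24 of 29 members of the largest block passed the filter.

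The largest block, 29 members from Hist1h4h to Hist1h1a over 233 kb of chromosome 13, held 21840 of the members' tumour counts, and 24 of its members passed. Within it Hist1h2bf, Hist1h2ad and Hist1h3d, which lie side by side, had 12 counts at most in any tumour library and did not pass. Of the 10 members on chromosome 3, 5 passed, and Hist2h2aa1, Hist2h2aa2, Hist2h3c1 and Hist2h3c2 had 0 counts. These 4 are known as near-identical pairs, and how the counting treated reads that match several genes is not given in the sources used here, so their 0 is uncertain. The same holds for other members that share reads with copies. Of the other small groups, 3 of 5 members passed on chromosome 13 between Hist1h2ah and Hist1h2bj, 1 of 3 on chromosome 11, and Hist4h4 on chromosome 6. Of Hist1h2ba and Hist1h2aa, side by side on chromosome 13, 0 of 2 passed.

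Peaks of open chromatin were next set beside the counts. A peak within 1 kb was found in all 6 ATAC libraries for 43 members, in 1 to 5 libraries for 2 and in none for 23. Of the 34 members that passed the RNA filter 33 had a peak in all 6, against 10 of the 34 that did not. The exception among those that passed was Hist1h4i, with a peak in 1 library. Neighbours share peaks: of the 43, 25 had the same strongest peak as another member in all 6 libraries, and 5 of the 10 that did not pass shared it with a member that passed. By library, 43, 44 and 44 members had a peak in shFto and 44, 45 and 44 in shNC, a difference in means of -0.667 members with an exact permutation p of 0.6 (two-sided, n = 3 and 3, where the smallest possible p is 0.1). The fold enrichment at the member's strongest peak, the peak caller's own value, ran from 4.299 to 25.6 over those 43 members and the 6 libraries. It was 12.5 to 14.4 at Hist1h1c, 12.8 to 14.6 at Hist1h1e, 8.95 to 10.9 at Hist1h2af and 11.3 to 12.99 at Hist1h4d.

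Within the block of 18 barely counted genes, 16 had no ATAC peak in any library. The other two, Hist1h2bm and Hist1h4j, had a peak in all 6, at a fold enrichment of 19.7 to 25.6 and 9.402 to 15.04, although neither had a tumour count. No peak of any library lay between 21734503 and 21847876 on chromosome 13, a stretch of 113 kb that reaches 14 members. Of the 3798 stretches between peaks on that chromosome, 185 (4.87%) were as long. Hist1h3b, in the largest block, had a peak in all 6 libraries (5.36 to 7.69) and 0 tumour counts, but this is the same peak as that of its neighbour Hist1h2ab, which had 841 tumour counts.

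In T cells, 50 of 68 members passed the filter and 9 had 0 counts in all 6 libraries. Of these 50, 36 reached the filter's minimum in every T cell group and 3 in the shNC group alone. For those 3, passing the filter and being low beside shFto cells are not independent. Hist1h2bm and Hist1h2ah reached the minimum in both shFto-1 libraries but not in both libraries of any other group. For these genes, passing the filter and being high beside shFto-1 cells are not independent. They enter the counts and medians of the 50 members below. The linker histones led: Hist1h1c had 846 CPM per kb beside shNC cells, Hist1h1e 335, the core gene Hist2h2ac 139, Hist1h4d 131 and Hist1h1d 114 CPM per kb. The H1 genes summed to 1061 and 899 CPM in the T cell shNC libraries, against 77.2, 80.6 and 66.1 CPM in tumour shNC libraries. The H2A, H2B, H3 and H4 genes summed there to 148 and 225, 109 and 176, 74.3 and 91.4 and 107 and 139 CPM. Hist1h2af, first per length in tumour cells, was the eighth in T cells at 45.4 CPM per kb. The T cell libraries held RNA of tumour cell genes, and its part in these levels was not tested. The tables were scaled apart and differ in cell type and experiment, so no test was made between them.

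A single T cell library stood apart before any comparison. Of the 50 tested members, 45 were highest in shFto-1 replicate 1, as were 13.6% of all genes tested, and the other 5 were highest in shNC replicate 1. The median log2 ratio of the 50 members to their shNC mean (0.5 CPM added) was 1.28 in shFto-1 replicate 1 and -0.07 in shFto-1 replicate 2. It was -0.34 and -0.38 in the shFto-2 libraries and -0.12 and 0.11 in the shNC libraries. All members summed to 2807 and 1431 CPM beside shFto-1 cells, 1022 and 927 beside shFto-2 and 1499.9 and 1530.1 beside shNC cells. The RNAs without a poly(A) tail summed to 12060.1 and 2360.4 CPM beside shFto-1, 1688 and 2215 beside shFto-2 and 1909 and 2369 beside shNC cells, so the same library was the highest by far. In it Rpph1 was at 10908 CPM, against 1443 to 2172 CPM in the other 5. Its part in the histone values was not tested, and the counts of members called by edgeR in T cells are given with and without this library.

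**Figure D3:**
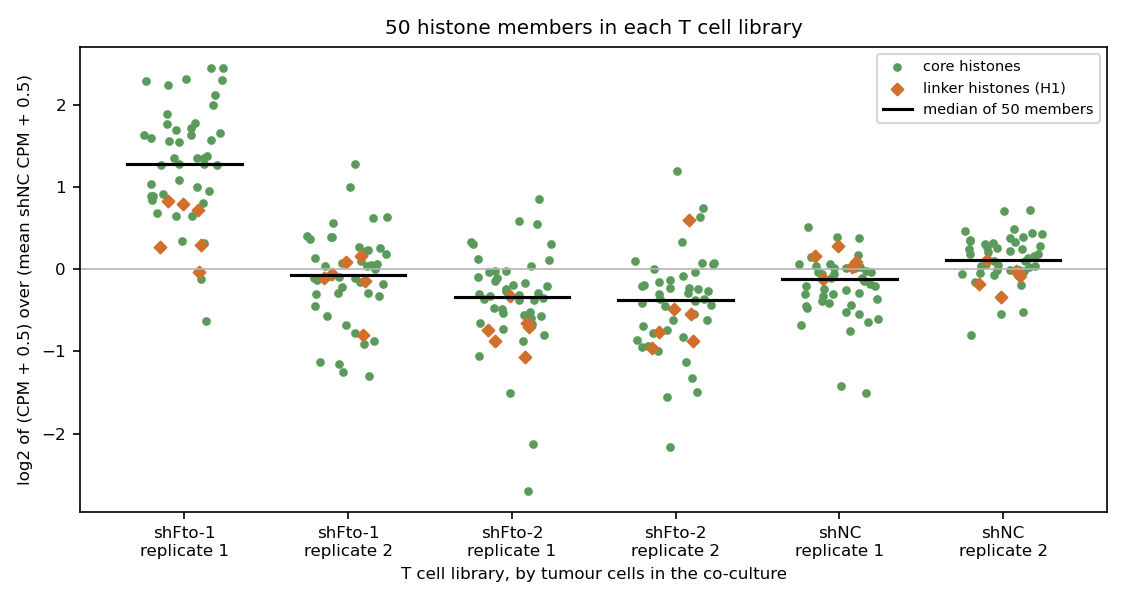
The log2 ratio of CPM plus 0.5 to the mean of the shNC libraries plus 0.5 for the 50 members tested in T cells, in each library, with core histones in green, linker histones as orange diamonds and the median as a black line. The median is 1.28 in shFto-1 replicate 1 and between -0.38 and 0.11 in the other 5 libraries.

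**Figure D4:**
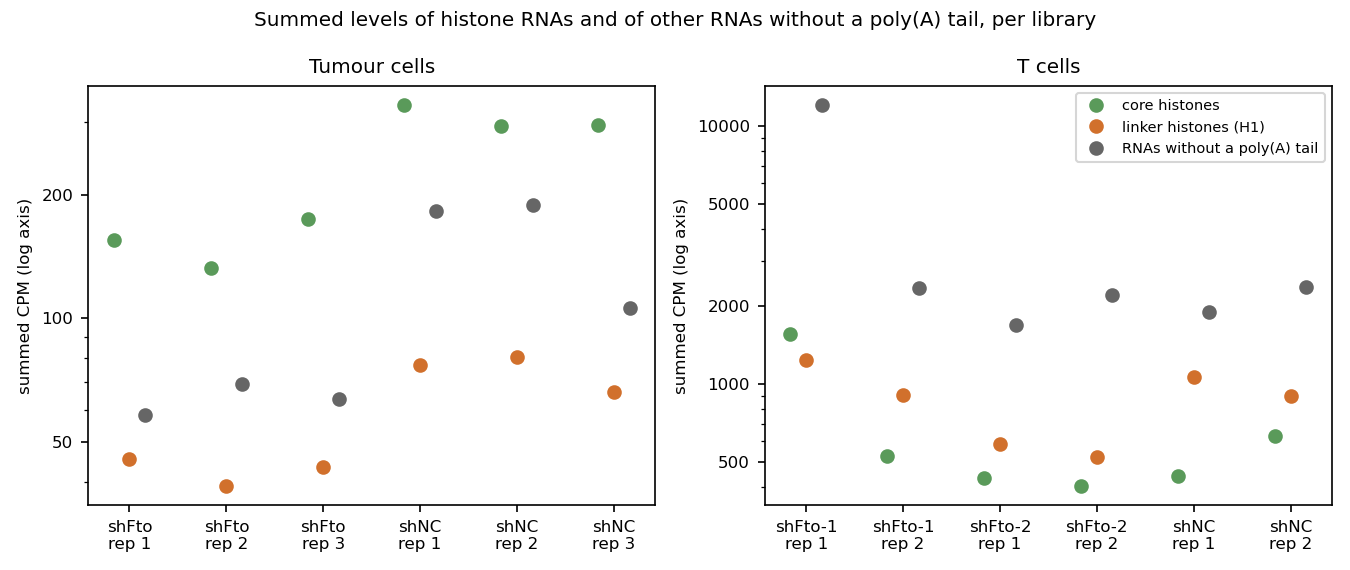
Summed CPM (log axis) of the core histones, the linker histones and 10 RNAs without a poly(A) tail in each tumour library (left) and T cell library (right). All 3 sums are lower in each shFto tumour library than in each shNC tumour library, and in T cells shFto-1 replicate 1 is the highest for all 3.

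Against shNC, T cells beside shFto-1 cells had 3 members called higher and 0 lower, where edgeR called 15.4% of 12824 genes tested higher and 6.84% lower. At an unadjusted p under 0.05 in either direction were 13 of the 50 members and 4271 of the 12824 genes. DESeq2 called 2 members higher and 0 lower, and among all genes 1929 higher and 1344 lower. The median of the 50 members was 0.87 and that of all genes 0.021. Hist1h3e was at 81.6 and 40.7 CPM beside shFto-1 cells and 23.2 and 31.7 CPM beside shNC cells (1.14 (SE 0.29, edgeR adjusted p = 0.0206)). Hist1h3f was at 45.6 and 19.1 CPM against 14.999 and 13.7 CPM (1.23 (SE 0.35, edgeR adjusted p = 0.0321)). Hist1h2bb was at 51.1 and 13.8 CPM against 8.21 and 12.6 CPM (1.63 (SE 0.50, edgeR adjusted p = 0.0423)). In all 3 the replicate 1 library gave most of the rise, and replicate 2 lay above both shNC libraries. Of the 12824 genes tested, 4252 had both shFto-1 libraries above both shNC libraries. Without shFto-1 replicate 1 the count of members called higher was 0, with 1 at an unadjusted p under 0.05 in either direction, the median of the 50 was -0.085, and the fold changes of these 3 were 0.55, 0.45 and 0.39. Without shFto-1 replicate 2 the count was 24. It was 0 without shNC replicate 1, 1 without shNC replicate 2 and 5 without shFto-2 replicate 2. Hist1h3e and Hist1h2bb are the members called with opposite directions, lower in shFto tumour cells and higher in these T cells.

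T cells beside shFto-2 cells had 3 members called lower, all linker histones, and 0 higher, where edgeR called 13.3% of genes tested lower and 20.4% higher. At an unadjusted p under 0.05 in either direction were 5 of the 50 members and 5311 of the 12824 genes. DESeq2 called 4 members lower and 0 higher, and among all genes 2071 lower and 2545 higher. Hist1h1c was at 368 and 315 CPM beside shFto-2 cells and 685 and 542 CPM beside shNC cells (-0.84 (SE 0.15, edgeR adjusted p = 0.00188)). Hist1h1e was at 161 and 143 CPM against 277 and 247 CPM (-0.78 (SE 0.15, edgeR adjusted p = 0.00227)). Hist1h1d was at 48.2 and 51.97 CPM against 81.4 and 96.2 CPM (-0.84 (SE 0.25, edgeR adjusted p = 0.0247)). None of the 3 had overlapping groups, where 4155 of the 12824 genes tested lay lower without overlap and 4471 higher. Hist1h1c and Hist1h1e were called under all 12 alternatives. Hist1h1d lost it without shFto-2 replicate 1 (edgeR adjusted p = 0.0526) and without shNC replicate 2 (0.165). Beside shFto-1 cells, with the same shNC libraries as controls, Hist1h1c was at 738 and 568 CPM, Hist1h1e at 321 and 237 CPM and Hist1h1d at 158 and 85.1 CPM, and their log2 fold changes were 0.096, 0.10 and 0.46. The median of the 50 members beside shFto-2 cells was -0.46, and -0.087 without shNC replicate 2. The count of members called lower was 3 without shFto-1 replicate 1 and 6 without shFto-1 replicate 2, libraries outside this contrast that enter through the shared spread.

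No core histone gene was called by edgeR beside shFto-2 cells, the most abundant included. The fall was not particular to H1: the median log2 fold change was -0.73 for H1 and -0.72 for H3. It was -0.46 for H2A, -0.24 for H2B and -0.36 for H4. Of 9 tested H3 genes, 7 lay lower without overlap and 1 higher, against 4 and 0 of 6 H1 genes. The most abundant H3 genes, Hist1h3e and Hist1h3f, had log2 fold changes of -0.27 (SE 0.31) and 0.25 (SE 0.37). Hist2h2ac was at 55.1 and 55.2 CPM with shFto-2 and 159 and 55.7 CPM with shFto-1 cells, against 52.5 and 77.5 CPM beside shNC cells. Hist1h2ac was at 17.8 and 18.2 and 64.6 and 20.3 CPM, against 18.6 and 31.3 CPM. In both genes a single shFto-1 library exceeded all others. Hist2h2bb was at 30.1 and 34.6 CPM with shFto-2 and 179 and 46.8 CPM with shFto-1 cells, against 28.6 and 60.96 CPM. Hist1h2bc was at 29.7 and 23.6 and 82.98 and 30.01 CPM, against 23.6 and 30.9 CPM. For these H2B genes too, shFto-1 replicate 1 was the highest and the other 5 libraries overlapped. Hist1h4d was at 40.7 and 44.5 CPM with shFto-2 and 138 and 54.9 CPM with shFto-1 cells, against 48.9 and 56.8 CPM. Hist1h4h was at 11.5 and 7.81 and 60.5 and 15.2 CPM, against 12.1 and 19.99 CPM. Both shFto-2 libraries lay below both shNC libraries for these H4 genes, as for 4155 of the 12824 genes tested. For these H4 genes shFto-1 replicate 1 lay above all. Of these 6 H2A, H2B and H4 genes none passed the threshold against shNC for either line, with edgeR adjusted p-values from 0.0779 to 0.932.

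When the shFto lines were averaged and set against shNC, edgeR called 0 members lower and 0 higher. Of all genes tested, 12.7% were called lower and 20.3% higher. At an unadjusted p under 0.05 in either direction were 3 of the 50 members and 5380 of the 12824 genes. DESeq2 called 2 members lower and 0 higher, and among all genes 2095 lower and 2478 higher. Without shFto-1 replicate 1, 3 members were called lower, all linker histones, and 0 higher, and the median of the 50 turned from 0.21 to -0.28. The nearest to the threshold with all libraries was Hist1h1c (-0.37 (SE 0.13, edgeR adjusted p = 0.0518)). Between the lines, 4 members were lower beside shFto-2 than beside shFto-1 cells and 0 higher, where edgeR called 1.42% of genes tested lower and 0.491% higher. At an unadjusted p under 0.05 in either direction were 29 of the 50 members and 2095 of the 12824 genes. DESeq2 called 6 members lower and 0 higher, and among all genes 553 lower and 535 higher. The 4 were Hist1h1c (-0.94 (SE 0.15, edgeR adjusted p = 0.0251)), Hist1h1e (-0.88 (SE 0.14, edgeR adjusted p = 0.0257)), Hist1h1d (-1.30 (SE 0.24, edgeR adjusted p = 0.0369)) and Hist1h3e (-1.42 (SE 0.29, edgeR adjusted p = 0.0448)). The fitted change was negative for all 50 members, with a median of -1.25. Without shFto-1 replicate 1 the median was -0.38, 0 members and 1 of all genes were called, 4 members were at an unadjusted p under 0.05, and the log2 fold changes of the 3 linker histones were -0.73, -0.63 and -0.76. The count was also 0 without shFto-2 replicate 2, and it was 22 without shFto-1 replicate 2.

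Related genes in T cells are given for both lines, which share their shNC controls. Of 25 histone chaperone genes, 13 were called higher and 2 lower beside shFto-1 cells, and 14 higher and 3 lower beside shFto-2 cells. The log2 fold changes for shFto-1 and shFto-2 in that order were 0.98 and 1.28 for the chaperone Npm1, 1.14 and 1.51 for the importin Ipo4, and 0.76 and 1.10 for the assembly protein Nap1l1. Of 37 S phase genes tested, 8 were called higher and 0 lower beside shFto-1 cells, and 13 higher and 2 lower beside shFto-2 cells. The helicase genes Mcm2 (0.68 and 1.17) and Mcm3 (0.67 and 0.99) rose beside both. Of 24 genes of G2 and mitosis, 0 were called beside shFto-1 cells, and 7 lower and 0 higher beside shFto-2 cells, including Top2a (-0.62) and Cenpf (-0.97). Of 23 genes for histone message processing, 3 and 8 were called higher and 1 and 1 lower, with Upf1, of message decay, at 0.45 and 0.64. Of 9 replacement variants, 3 were called higher and 0 lower beside shFto-1 cells, and 2 higher and 2 lower beside shFto-2 cells, where H2afj rose (0.68) and H2afv fell (-1.47). Without shFto-1 replicate 1, the counts beside shFto-1 cells were 10 higher and 0 lower for the chaperones, 5 and 0 for the S phase genes, 2 and 1 for message processing, and 2 and 0 of 11 tested replacement variants. Of the 12 T cell markers, 9 were called lower and 2 higher beside shFto-2 cells, and 3 lower and 2 higher beside shFto-1 cells, or 0 and 2 without shFto-1 replicate 1. Their summed level was 4489 and 4480.2 CPM beside shFto-1, 4044 and 3879 beside shFto-2 and 4951 and 4717 beside shNC cells, and its part in the linker histone values was not tested.

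The m6A peak lists, made from poly(A) RNA of tumour cells, held 3 members between them. Of 68, 2 (2.94%) had a peak in the shNC list, 1 (1.47%) in the shFto list and 3 (4.41%) in the list for shNC cells with Dac51. Of all 24421 genes of the count table, 21.7%, 26.5% and 24.4% had one, from lists of 8479, 10811 and 9850 peaks. Messages that end in the stem-loop are not retained by poly(A) selection, so the lists do not cover the members as the RNA-seq tables do. Hist2h2be had the same pair of peak starts in all 3 lists, at 168 and 1833 bases into the gene. For the first (chr3:96221240-96221478 in the shNC list) the fold enrichment was 3.53 in shNC, 5.43 in shFto and 6.67 with Dac51. For the second (chr3:96222905-96223262) it was 13.3, 6.3 and 6.37. The first was lowest in shNC and the second highest there. Hist3h2a had a peak in shNC (chr11:58955013-58955073, fold enrichment 1.4) and one with Dac51 (chr11:58955103-58955192, 2.71), which do not overlap, and Hist1h2bc had one with Dac51 (chr13:23692272-23692391, 1.56). That Hist1h2bc peak started 8073 bases into a gene annotated at 8282 bases. The median fold enrichment of all peaks was 5.05 in shNC, 6.19 in shFto and 5.75 with Dac51. These are single lists with the peak caller's values, on the mm10 build, so differences between them have no replicate check. In the RNA-seq of tumour cells Hist2h2be was not called, while Hist3h2a and Hist1h2bc fell.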

How the data were processed

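RNA was measured by a stranded total RNA kit, per the labels' protocols, and the authors deposited raw counts per gene symbol. Each deposited ATAC-seq list is of 1 library and holds, per peak, its fold enrichment ratio, -log10 p, -log10 q and score. The deposited m6A lists, from poly(A) RNA, give a fold enrichment ratio, a p-value and log10-scale scores per peak. STAR 2.7.0f, Bowtie2 2.3.5, MACS2 2.1.3, Trim Galore 0.6.0, Picard, deepTools and mm10 are named in the submitters' processing notes. The counter, its strand setting and annotation are not given in the sources used here.

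The members and lists were chosen with earlier results of these data known. The tests on counts used edgeR 4.0.16 under R 4.3.3 (TMM, default filter, quasi-likelihood F test, Benjamini-Hochberg over all tested genes, threshold 0.05), fitted once per count table. The filter required 0.623 CPM in 3 tumour libraries or 1.52 CPM in 2 T cell libraries. SE is the log2 fold change over the root of F. DESeq2 1.42.0, other scalings and filters, a replicate block and leaving out each library were alternatives. The steps were tested on simulated data. Total counts limit precision. The limit of 3 counts given for a count of 0 covers counting error only, while SE and SD include variation between libraries.

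ATAC lists were cut to the 67427 strongest peaks by -log10 q, and a peak within 1 kb of a gene counted. Positions and promoters are from RefSeq GRCm38.p6, the assembly also called mm10. Values are given per library for the 3 members of each class highest in tumour cells, the 2 highest in T cells, members called with opposite signs and members with an m6A peak. Context genes are up to 3 per list with the smallest adjusted p. Neighbour groups are split at gaps over 150 kb. Figures used Matplotlib 3.10.9.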

Additional observations from a re-analysis of the deposited data

Results flagged for a closer look

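In T cells 4 members passed the threshold in the test of the difference itself, the contrast of shFto-2 with shFto-1 in edgeR's quasi-likelihood fit. Of all genes tested, 1.42% were called lower in it. With 2 libraries a line, a difference between lines and one between libraries cannot be told apart. The log2 difference was -0.94 for Hist1h1c, -0.88 for Hist1h1e, -1.30 for Hist1h1d and -1.42 for Hist1h3e. Each was lower in both shFto-2 libraries than in both shFto-1 libraries, as were 2974 of the 12824 genes tested. The edgeR adjusted p-values were 0.0251, 0.0257, 0.0369 and 0.0448. Without shFto-1 replicate 1 the differences were -0.73, -0.63, -0.76 and -0.79, with adjusted p-values of 0.153, 0.166, 0.167 and 0.293.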

How the results depend on the processing

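In tumour cells, the count of members called lower was 22 to 27 under every alternative but 1, and 14 of 16 tested members with a mean of at least 5 CPM, where fewer genes are tested. It was 26 with the replicate block and 22 to 25 with a library left out, and 0 members were called higher throughout. Of the 27 calls, 18 were made under every alternative and 9 were lost under at least 1. The one reversal, Hist4h4, which was not called, ran over -0.53 to 0.083 with a library left out.

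T cell counts moved more, and the cause was not tested. Beside shFto-1 cells, members called higher numbered 3, 1 with library totals, 19 with no filter and 0 to 24 with a library left out (2 with the replicate block). Beside shFto-2 cells, members called lower numbered 3, 9 with no filter and 2 to 6 with a library left out (3 with the block). For the mean of the lines, members called lower numbered 0, but 2 with DESeq2, RLE scaling, library totals, no filter, a mean of at least 5 CPM or the replicate block, and 0 to 3 with a library left out. Members called higher numbered 0, but 6 with no filter and 0 to 7 with a library left out. Between the lines, 4 were called lower, 23 with no filter, 9 with a mean of at least 5 CPM and 0 to 22 with a library left out (4 with the block). The labels tie no number to a shared culture or day. Same-numbered tumour libraries had deviations correlated at -0.017 to 0.037, and T cell libraries at 0.37 between the shFto lines, -0.32 for shFto-1 with shNC and -0.21 for shFto-2 with shNC, so the numbers were not taken as pairs.

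Against shNC beside shFto-1 cells, Hist1h1c reversed with library totals (-0.072) and a mean of at least 5 CPM (-0.0034), and Hist1h1e with library totals (-0.067). Leaving out 1 library gave -0.084 to 0.25 for Hist1h1c, -0.11 to 0.28 for Hist1h1e, -0.24 to 1.23 for Hist2h2ac, -0.33 to 1.29 for Hist1h2ac, -0.11 to 1.82 for Hist1h4h and -0.13 to 0.98 for Hist3h2a. Beside shFto-2 cells it gave -0.53 to 0.10 for Hist2h2ac, -0.96 to 0.21 for Hist2h2bb, -0.28 to 0.22 for Hist1h2bc, -0.47 to 0.048 for Hist1h3e and -0.47 to 0.21 for Hist1h2bb. None of these 11 was called by the reported fit. Of 877 values of 75 single-gene results, 768 kept their direction and side of the threshold. The difference in members with an ATAC peak was -0.83 to -0.33 under all alternatives, and -0.67 with libraries paired by number. Of 4, 2 and 3 m6A peaks in members with Dac51, in shFto and in shNC, 3, 2 and 2 were of at least 2-fold. Near-identical copies and the shallowest T cell library, of 2628158 counts, limit low members most.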
